A study of Homo sapiens with 2 samples.

Results

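EOMES, NEUROG1, NEUROG2, NHLH1, INSM1, HES6, NEUROD1, NEUROD4 and PPP1R17 were examined in 2 split-seq libraries of human brain organoids. These 9 genes were taken by name from the 62704 genes counted in each library, and all 9 were detected in both. EOMES, also called TBR2, is a T-box transcription factor and the standard marker of intermediate progenitor cells of the developing cortex. NEUROG1, NEUROG2, NEUROD1, NEUROD4, NHLH1 and HES6 are basic helix-loop-helix proteins, INSM1 is a zinc-finger transcription factor, and PPP1R17 is a regulator of protein phosphatase activity.

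In the cortex, radial glia divide at the ventricle and give rise to intermediate progenitors, which divide away from it and produce neurons. The neurogenins are proneural factors that act early in this sequence, before the NEUROD factors, and Notch ligands and inhibitors are induced alongside them. Cells on this path therefore pass from division markers to neuron markers within a short time, and the transcripts of successive factors may meet in 1 cell.

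The organoids were grown from the H9 human embryonic stem cell line with a commercial cerebral organoid kit; the labels name no genetic change. The cells library pooled control (CO) organoids of days 45, 55 and 70 with dissociated (DISS) organoids, which were taken apart at day 45, allowed to reaggregate and sampled at days 48, 55 and 70. It also held constrained (CONS) organoids of day 55, whose Matrigel was removed at day 13 before they were placed in 3% agarose. The nuclei library came from CO organoids of day 45, taken whole or as dissociated suspensions, although its label also names an embedded treatment. Barcodes were not assigned here to an organoid, day or treatment. Each library was therefore 1 sample with no replicate, no comparison of conditions was made and no test was run, and every interval below is an exact 95% interval that covers counting error only.

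A barcode was kept when it held over 500 genes and over 1000 transcripts, of which mitochondrial genes made up 20% or less. These were 20178 of 1303455 barcodes in the cells library, with a median of 2615 transcripts and quartiles of 1427 and 7224. In the nuclei library they were 14228 of 197446 barcodes, with a median of 3890 transcripts and quartiles of 2275 and 6191. At least 1 transcript of a member was found in 6682 cell barcodes and 2282 nuclei barcodes.

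A cell in split-seq is named by the wells it visits, and the same combination of wells recurred between separately amplified sub-libraries. In the cells library 2642 of 16246 combinations were kept in more than 1 of the 8 sub-libraries, and they accounted for 32.6% of barcodes. In 300 such pairs, the profiles of 2000 genes had a median correlation of 0.405. In the nuclei library 636 of 13592 combinations were in both sub-libraries, at a median correlation of 0.0235. A further 533 combinations occurred in both libraries. The main values below are therefore given again with 1 barcode per combination.

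To show the sequence just before the start of transcription, the promoter window of 250 bases was read from RefSeq (GRCh38.p14), whose table held 8 of the 9 members, all except INSM1. Proneural proteins bind E-box motifs, and the letters CAGATG, which read CATCTG on the other strand, and the palindrome CAGCTG were searched on both strands. Either motif was found in 4 of the 8 windows, against 24.3% of 35116 windows in the table. NHLH1 held CAGATG 210 bases before its start, which 12.2% of all windows contained. HES6, NEUROD4 and PPP1R17 held CAGCTG 158, 46 and 42 bases before their starts, which 14.0% of all windows contained. The windows of EOMES, NEUROG1, NEUROG2 and NEUROD1 had neither motif. RefSeq places the starts of EOMES, HES6 and NEUROD1 downstream of the outermost GENCODE v44 start, so their windows lie inside the GENCODE gene span. The windows of EOMES and of NHLH1 and NEUROD4, its most frequent and its most enriched partners among the cells described below, are printed 5′ to 3′ on the strand of the gene, with a found motif in capitals. They lie at chr3:27722324-27722573 (minus strand), chr1:160366821-160367070 (plus strand) and chr12:55019724-55019973 (plus strand).
EOMES: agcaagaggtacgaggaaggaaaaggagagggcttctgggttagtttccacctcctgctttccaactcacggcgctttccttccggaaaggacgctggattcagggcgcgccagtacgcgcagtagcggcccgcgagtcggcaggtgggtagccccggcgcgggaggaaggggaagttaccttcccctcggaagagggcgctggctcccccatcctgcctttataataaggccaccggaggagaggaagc
NHLH1: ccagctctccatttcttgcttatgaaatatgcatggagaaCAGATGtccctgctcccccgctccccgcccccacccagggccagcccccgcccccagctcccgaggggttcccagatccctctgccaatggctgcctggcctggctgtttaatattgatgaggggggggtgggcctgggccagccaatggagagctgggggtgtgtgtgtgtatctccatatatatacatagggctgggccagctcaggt
NEUROD4: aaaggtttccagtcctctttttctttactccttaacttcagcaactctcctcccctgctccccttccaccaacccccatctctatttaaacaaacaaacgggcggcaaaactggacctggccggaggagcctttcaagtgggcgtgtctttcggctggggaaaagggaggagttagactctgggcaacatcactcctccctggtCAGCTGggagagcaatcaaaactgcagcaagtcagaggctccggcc

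In the GENCODE v44 annotation of GRCh38, EOMES lies at chr3:27715949-27722711 and, like NHLH1, INSM1, NEUROD4 and PPP1R17, overlaps no other gene. NEUROG1, NEUROG2 and HES6 each overlap at least 1 gene on the opposite strand, and NEUROD1 overlaps CERKL on its own strand. Whether the counting used strand is not given in the sources used here, so the counts of these 4 members may include transcripts of a neighbour.

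EOMES contributed 3802 transcripts to the kept cell barcodes and 574 to the kept nuclei. Its level was 24.2 CPM, its transcripts for every 1000000 counted over kept barcodes (23.4 to 24.95), in cells and 7.95 CPM (7.32 to 8.63) in nuclei. The 8 cell sub-libraries, which are technical splits, ranged from 20.5 to 30.8 CPM with an SD of 3.35. The 2 nuclei sub-libraries gave 7.79 and 8.09 CPM. EOMES was therefore higher in cells than in nuclei in each sub-library, but the libraries differ in organoids, days and RNA compartment, and these cannot be told apart.

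By CPM alone the order in cells was NEUROG2 (37.2), NHLH1 (30.2), EOMES, HES6 (18.6), PPP1R17 (17.1), NEUROD4 (9.27), NEUROD1 (8.16), INSM1 (4.63) and NEUROG1 (2.73). Dividing by the length of all annotated exons, 8208 bases for NEUROD1 and 1884 for PPP1R17, changed this order, and the true length of the transcripts present was not measured. Over all kept barcodes pooled, it put the proneural factor NEUROG2 first in both libraries, at 16.2 CPM per kb in cells and 5.36 in nuclei. In cells NHLH1 followed at 11.8, HES6 at 9.52 and PPP1R17 at 9.06 CPM per kb, and EOMES came next at 6.61. NEUROD4 had 2.36, INSM1 1.63, NEUROG1 1.62 and NEUROD1 0.994 CPM per kb. The gap between HES6 and PPP1R17, and that between INSM1 and NEUROG1, was smaller than the sum of their SDs between sub-libraries.

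In nuclei the order per kb was NEUROG2, PPP1R17 (3.75), HES6 (3.29), NHLH1 (3.06), EOMES (2.18), NEUROD4 (0.695), NEUROD1 (0.486), INSM1 (0.346) and NEUROG1 (0.206). PPP1R17 from HES6, HES6 from NHLH1 and INSM1 from NEUROG1 were not separated by more than the summed SDs of the 2 sub-libraries. NEUROD1 was last in cells and seventh in nuclei. NEUROG1 rested on 429 transcripts in cells and 25 in nuclei and INSM1 on 729 and 71, so these were the least precisely measured members.

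**Figure D1:**
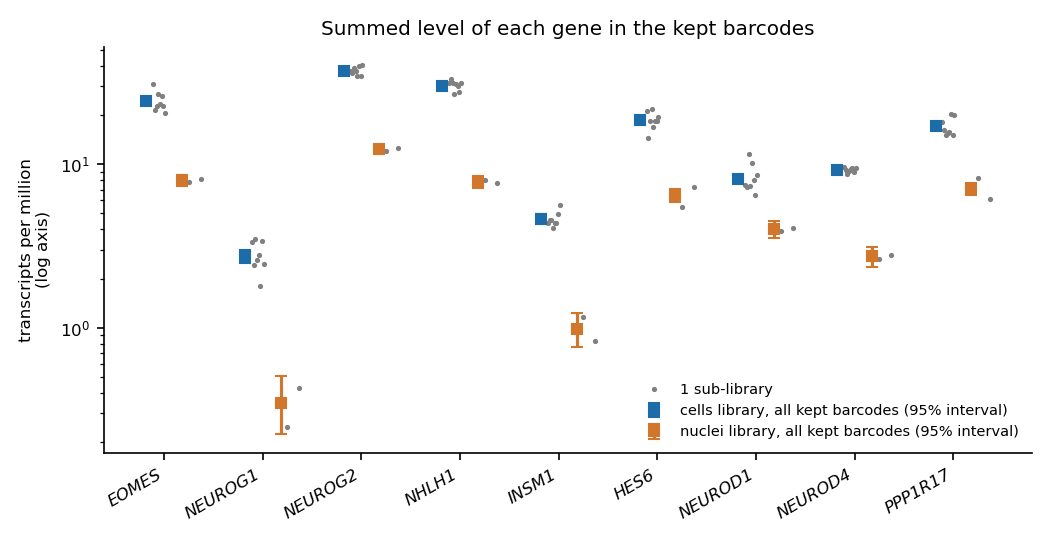
Level of each member in CPM over kept barcodes of the cells and nuclei libraries, with the values of sub-libraries as points. EOMES sits at 24.2 CPM in cells and 7.95 in nuclei, and all 9 members are higher in cells.

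The first-round wells receive separate samples, but no condition was assigned to them here. Across the 48 wells of the cells library, EOMES ranged from 0 to 67.7 CPM with a median of 17.0, and 2 wells had none. NHLH1 ranged from 0 to 94.3 (median 20.5) and NEUROG2 from 4.89 to 66.8 (median 30.3). The order of members given above is that of pooled barcodes and was not the same in every well. NEUROG2 was below PPP1R17 in well C5 (16.8 and 41.1 CPM) and above it in well C7 (42.8 and 13.6 CPM). A single well held 12.9% of all EOMES transcripts, and without it the EOMES level was 22.5 CPM. In the 12 wells of the nuclei library, EOMES ranged from 3.25 to 9.94 CPM with a median of 7.72.

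In counts without equal depth, EOMES transcripts were concentrated in few barcodes of the cells library. The shares below also depend on the depth of barcodes and the level of each gene. Barcodes with at least 2 EOMES transcripts held 76.7% of them, and 1 barcode held 32. For NEUROG2 the share was 69.0%, for NHLH1 72.6% and for INSM1 38.7%. In nuclei the shares were 44.8% for EOMES and 23.6% for NEUROG2, and no nucleus had more than 5 EOMES transcripts.

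Because deep barcodes detect more genes, each barcode was thinned to 1000 transcripts drawn at random. EOMES was then detected in 436 of 20178 cells, 2.16% (1.96 to 2.37), and in 122 of 14228 nuclei, 0.857% (0.713 to 1.02). Without thinning, the shares were 7.55% and 3.01%. With 1 barcode per combination they were 2.09% and 0.853% at 1000 transcripts.

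Few barcodes hold several members at 1000 transcripts, so a second depth of 5000 transcripts was added after the data had been seen, which left 6781 cells and 5152 nuclei. At this depth EOMES was found in 7.29% of cells (6.68 to 7.93) and 2.68% of nuclei (2.26 to 3.16). NEUROG2 was found in 14.1% of cells and 5.32% of nuclei and NHLH1 in 10.2% and 3.3%. HES6 (6.67%) and PPP1R17 (6.30%) were close to EOMES in cells, followed by NEUROD4 (3.41%), NEUROD1 (3.32%), INSM1 (2.14%) and NEUROG1 (1.03%).

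Choroid plexus epithelium should lack these factors and served as a measure of free RNA. The choroid plexus-like cluster had 7 of its 8 markers in cells and 6 in nuclei and was deeper than the libraries, with medians of 7635 and 9745 transcripts. At 1000 transcripts, EOMES was in 1 of 594 of its cells (0.168%) and in 0 of 350 of its nuclei, which allows a share of up to 0.857%. At 5000 transcripts it was in 1.64% of its cells (0.604 to 3.53), against 7.29% of all cells.

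Not every member stood above the choroid plexus-like background. NEUROG1 was in 1.09% of choroid plexus-like cells at 5000 transcripts against 1.03% of all cells, although its level differed between clusters, for example 0.480 CPM in the dividing cluster 10 and 17.8 CPM in cluster 9 described below. In nuclei, 1 of 276 choroid plexus-like nuclei (0.362%, interval to 2.00%) had NEUROG1, and likewise for INSM1, NEUROD4 and NEUROD1, against 0.116%, 0.446%, 1.03% and 2.17% of all nuclei. For NHLH1 the nuclei shares were 1.45% (0.396 to 3.67) and 3.3% (2.83 to 3.82). At 5000 transcripts the shares of NEUROG1 in both libraries and of INSM1, NEUROD4, NEUROD1 and NHLH1 in nuclei were therefore not separated from background by their intervals, a limit that their values below carry. At 1000 transcripts no member was separated in nuclei, nor were NEUROG1, INSM1 and NEUROD4 in cells. For EOMES nuclei the interval there was 0.713 to 1.02%, against up to 1.05% in choroid plexus-like nuclei. The values at 1000 transcripts below carry this limit. Barcodes of 10 to 100 transcripts, taken to hold mainly free RNA, had EOMES at 21.9 CPM in the cells library. Drawing 1000 transcripts from that pool would give EOMES in 2.17% of draws, as often as in the kept cells, and the nuclei pool would give 0.579%. At 5000 transcripts the pools would give 10.4% and 2.86%, above the 7.29% of kept cells and the 2.68% of kept nuclei. In cells the pool would give 14.7% for NEUROG2, 12.7% for NHLH1, 8.28% for PPP1R17 and 7.45% for HES6. It would give 5.52% for NEUROD4, 3.91% for NEUROD1, 2.13% for INSM1 and 1.16% for NEUROG1. Apart from INSM1, at 2.14% of kept cells, each was above the share of kept cells. In nuclei the pool value was below the kept share for NEUROG2, NHLH1, HES6, NEUROD1 and PPP1R17 and above it for the rest. The part of free RNA in the shares of all barcodes was not tested, and the results that follow compare barcodes within a library at equal depth.

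At 5000 transcripts, 831 of 6781 cells had 2 or more members, 12.3% (11.5 to 13.1), and the most in a single cell was 7. In the choroid plexus-like cluster this was so for 4 of 366 cells, 1.09%. Among nuclei, 163 of 5152 had 2 or more members, 3.16% (2.70 to 3.68), and 1 of 276 choroid plexus-like nuclei. At 1000 transcripts the shares were 1.35% of cells and 0.316% of nuclei.

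Barcodes with EOMES had another member more often than barcodes without it. At 5000 transcripts this was 66.0% (61.6 to 70.2) against 30.5% (29.3 to 31.6) of cells and 54.3% (45.7 to 62.8) against 14.7% (13.7 to 15.7) of nuclei. With 1 barcode per combination the values were 66.1% against 29.6% and 53.0% against 14.6%. At 1000 transcripts they were 24.8% against 11.01% of cells and 11.5% against 4.25% of nuclei, where another random draw gave 20.0% with EOMES.

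The same direction was seen for all 9 members in both libraries at 5000 transcripts, each with intervals apart, although NEUROG1 in nuclei rested on 6 barcodes. A barcode with both members of a pair counts for each of them, so the 9 results are not independent. Other genes were not scored in this way. At 1000 transcripts the direction also held for all 9. There the intervals were apart for 7 in cells (not INSM1 and NEUROD1) and 6 in nuclei (not NEUROG1, INSM1 and PPP1R17). Barcodes with NEUROD4 were the most often accompanied in cells, since 78.8% had another member, and in nuclei 60.4% had. NEUROG2, the most often detected member, was the least often accompanied, at 45.6% of cells and 21.9% of nuclei. A member cannot be its own partner, so the share for NEUROG2 leaves out the most frequent partner, which the other members keep. Among barcodes without a given member, the share with another member ranged from 24.96% to 34.87% of cells at 5000 transcripts. In nuclei it ranged from 12.28% to 16.85%. The order of members is therefore not read further.

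For each of the 36 pairs, the number of barcodes with both members was divided by the number given by the product of the single shares. The interval of this ratio covers the counting error of barcodes with both members alone. The product was taken as known, so the intervals are too narrow for rare members. At 5000 transcripts the ratio exceeded 1 for all 36 pairs in cells, with a median of 2.23, and the interval lay above 1 for 29. With 1 barcode per combination these counts were 36 and 30. Pairs of other genes were not counted in this way, so these counts are not read as particular to the members. In nuclei the ratio exceeded 1 for 28 pairs and the interval for 14, while 7 pairs were never found together. At 1000 transcripts far fewer pairs were resolved, since the interval lay above 1 for 12 pairs in cells (5 with 1 barcode per combination) and 5 in nuclei, and the ratio was under 1 for 4 and 14 pairs. No doublet call was usable here, and the part of barcodes that hold several cells was not tested.

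**Figure D2:**
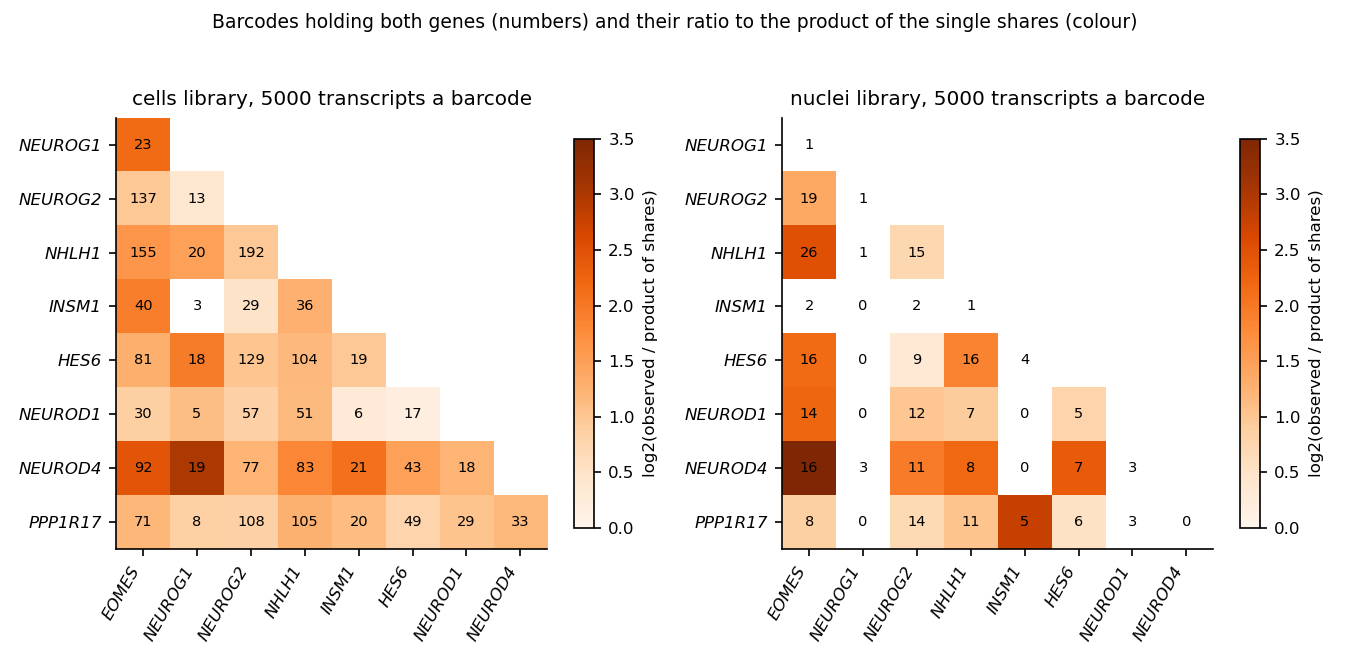
Ratio of barcodes with both members of a pair to the number given by the product of their shares, at 5000 transcripts, for each pair in cells and nuclei. All 36 ratios exceed 1 in cells, and EOMES with NEUROD4 stands at 5.47 in cells and 11.3 in nuclei.

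The pairs with the most cells were NEUROG2 with NHLH1 (192 cells, ratio 1.97), EOMES with NHLH1 (155, 3.07), EOMES with NEUROG2 (137, 1.97), NEUROG2 with HES6 (129, 2.02) and NEUROG2 with PPP1R17 (108, 1.79). NEUROG2 was in 4 of these 5 pairs. In nuclei the most frequent pairs were EOMES with NHLH1 (26 nuclei, ratio 5.71), EOMES with NEUROG2 (19, 2.59), EOMES with NEUROD4 (16, 11.3), EOMES with HES6 (16, 4.49) and NHLH1 with HES6 (16, 3.65).

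The largest ratios in cells belonged to NEUROG1 with NEUROD4 (7.97, 19 cells), EOMES with NEUROD4 (5.47, 92 cells), EOMES with NEUROG1 (4.51, 23 cells), INSM1 with NEUROD4 (4.25, 21 cells) and NEUROG1 with HES6 (3.86, 18 cells). Apart from EOMES with NEUROD4, each rested on fewer than 25 cells. In nuclei, beside EOMES with NEUROD4, the largest were NEUROG1 with NEUROD4 (48.6, 3 nuclei), INSM1 with PPP1R17 (6.87, 5), INSM1 with HES6 (6.74, 4) and EOMES with NEUROG1 (6.22, 1). NEUROD4 and PPP1R17 were in no nucleus together where 1.68 were given by the product.

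EOMES and NEUROD4 had the largest ratio among pairs found in 25 or more cells, a limit set after the values were seen. NEUROD4 was in 18.6% of cells with EOMES and 2.21% of cells without, and the ratio of 5.47 had an interval of 4.41 to 6.70. Read the other way, 39.8% of NEUROD4 cells had EOMES. In nuclei NEUROD4 was in 11.6% of nuclei with EOMES and 0.738% without, a ratio of 11.3 (6.44 to 18.3). With 1 barcode per combination the ratios were 5.85 on 84 cells and 10.9 on 14 nuclei.

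NHLH1 was in 31.4% of cells with EOMES and 8.56% of those without, and in 18.8% and 2.87% of nuclei. At 1000 transcripts the ratio for this pair was 3.36 (2.42 to 4.55) on 42 cells, close to its 3.07 (2.61 to 3.59) at 5000. PPP1R17 with EOMES had a ratio of 2.28 (1.78 to 2.88) in cells and 1.83 (0.787 to 3.61) in nuclei, where the interval included 1.

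Division was scored as at least 2 of 24 markers, 12 of S phase such as PCNA and MCM2 and 12 of G2/M such as MKI67 and TOP2A. At 5000 transcripts 73.1% of EOMES cells (68.9 to 76.9) passed, against 67.8% of other cells (66.7 to 69.0). Among nuclei these were 62.3% (53.7 to 70.4) and 55.3% (53.9 to 56.7). The intervals overlapped in both libraries, and at 1000 transcripts the nuclei had the opposite order, 21.3% with EOMES against 24.5% without. The 2 settings differ both in depth and in the nuclei included, 5152 and 14228. When only nuclei over 5000 transcripts were thinned to 1000, more of the EOMES nuclei passed than the 21.3% here, as given at the end. The direction for EOMES nuclei was therefore not settled, and the part of each difference was not tested further.

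HES6, which opposes the Notch-induced repressor HES1, was the member most often found with division markers at 5000 transcripts. At least 2 were found in 75% of HES6 cells against 67.7% of others, and in 69.9% of HES6 nuclei against 55.1%, with intervals apart in both libraries. At 1000 transcripts the HES6 intervals overlapped in both, at 38.4% (33.2 to 43.7) against 33.7% (33.1 to 34.4) of cells and 33.6% (25.01 to 43.1) against 24.4% (23.7 to 25.1) of nuclei. NEUROD4 had similar shares, 74.0% against 68.0% of cells and 64.2% against 55.4% of nuclei, but its intervals overlapped.

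NEUROD1, NHLH1 and PPP1R17 went the other way. Division markers were in 60% of NEUROD1 cells against 68.5% of others and in 29.5% of NEUROD1 nuclei against 56.1%, with intervals apart in both. For NHLH1 the shares were 65.5% against 68.5% of cells and 38.8% against 56.1% of nuclei, apart in nuclei alone. For PPP1R17 they were 63.7% against 68.5% and 47.9% against 55.8%, where the intervals overlapped.

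At 1000 transcripts the intervals were apart for NHLH1 (28.2% against 34.0% of cells, 10.3% against 24.6% of nuclei) and PPP1R17 (24.02% against 34.0%, 6.82% against 24.6%) in both libraries. NEUROG2 was higher in cells at that depth, at 40.1% against 33.6%, but was 18.8% against 24.6% in nuclei, and at 5000 transcripts its cells had 69.2% against 68.0%. Choroid plexus-like barcodes passed the division score in 52.7% of cells and 28.3% of nuclei at 5000 transcripts, and how many of them divide was not measured. NEUROD1 nuclei lay close to that level, and the share of the score that is background was not tested.

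**Figure D3:**
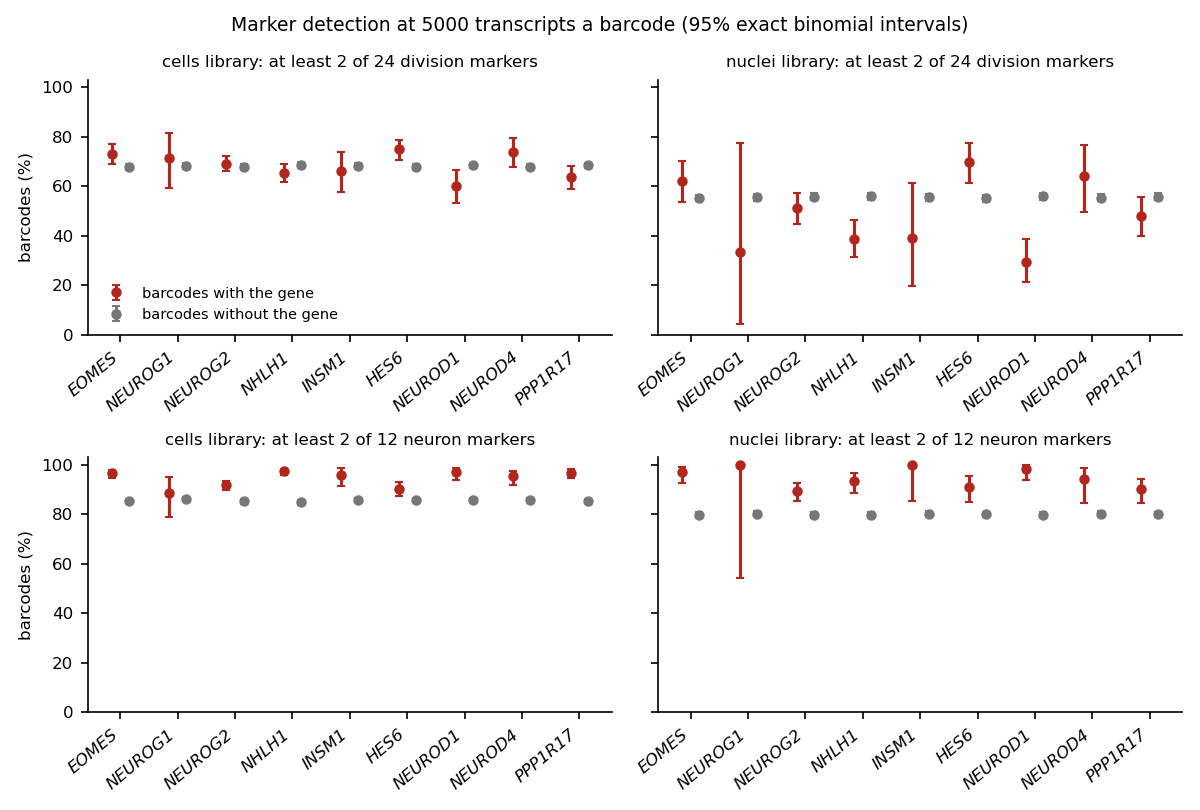
Share of barcodes with at least 2 division markers and with at least 2 neuron markers among barcodes with and without each member, at equal depth, with exact 95% intervals. HES6 lies above and NEUROD1 below the barcodes without them for division in both libraries.

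Neuron markers (at least 2 of 12, among them DCX, STMN2 and SYT1) accompanied EOMES in both libraries. At 1000 transcripts 68.6% of EOMES cells and 62.3% of EOMES nuclei passed, against 57.0% and 39.9% of others. At 5000 transcripts the shares were 96.6% against 85.3% and 97.1% against 79.8%, while 44.3% of choroid plexus-like cells and 41.3% of nuclei passed. For 8 of 9 members, all except NEUROG1, the intervals at 5000 transcripts were apart and higher with the member in both libraries. At 1000 transcripts they were apart for 5 in each library. These were EOMES, NEUROG2, NHLH1 and PPP1R17 in both, INSM1 in cells and NEUROD1 in nuclei, while HES6 and NEUROD4 were apart in neither. Genes other than the members were not scored in this way. These counts therefore have no share over all genes beside them and are not read as particular to the members.

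Since nearly all barcodes with a member passed at that depth, the mean number of neuron transcripts per 5000 separates the members better. It was 19.1 in PPP1R17 cells against 11.7 without it and 18.6 in NEUROD1 cells against 11.96. EOMES cells had 14.5 against 12, and HES6 cells 12.7 against 12.2. In nuclei NEUROD1 had 23.0 against 12.2, EOMES 14.9 against 12.3 and HES6 10.7 against 12.4, so HES6 was on opposite sides in the 2 libraries.

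Division and neuron markers were both present in 70.4% of EOMES cells (66.2 to 74.4) against 57.6% of others (56.3 to 58.8). In nuclei they were both present in 59.4% (50.7 to 67.7) against 41.9% (40.6 to 43.3). NEUROD1 nuclei had neuron markers without division markers in 70.5%, against 37.1% of other nuclei, whereas EOMES nuclei did so in 37.7% against 37.9%. Since nearly all EOMES barcodes passed the neuron score at this depth, the joint share adds little to the single ones.

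Marker levels were then compared by the number of members in a barcode. Cells with 0, 1, 2, 3 and 4 or more members had means of 10.7, 14.2, 16.2, 16.7 and 16.5 neuron transcripts per 5000. Radial glia transcripts (10 genes, among them SOX2, PAX6 and VIM) had means of 9.97 with 0 members and 6.26 with 4 or more, but the share of cells with at least 2 such markers did not fall, at 79.8% and 86.2%. Division transcripts were 8.01, 8.47, 7.81, 7.10 and 6.64. In nuclei, neuron transcripts were 11.6, 16.2, 16.5 and 15.7 with 0 to 3 members, and the 7 nuclei with 4 or more had 11 neuron and 17.3 division transcripts.

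**Figure D4:**
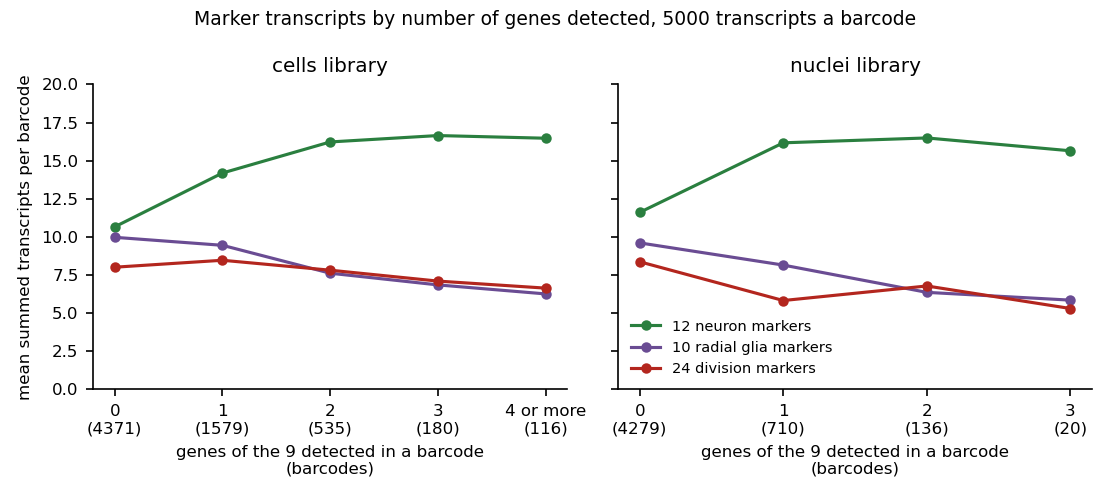
Mean transcripts of neuron, radial glia and division markers per 5000 transcripts against the number of members in a barcode, for groups of at least 20 barcodes. In cells neuron transcripts go from 10.7 to 16.5 and radial glia transcripts from 9.97 to 6.26 between 0 and 4 or more members.

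Every gene found in at least 100 thinned barcodes was compared between EOMES and other barcodes by the ratio of the shares with it. In cells at 5000 transcripts, a ratio of 2 or more was reached by 77 of 16410 genes (0.469%), and by 6 of the 7 members tested, all but NEUROD1. With 1 barcode per combination, NEUROD1 (2.16) passed too, so that all 7 did, against 0.544% of genes. The ratio was 8.42 for NEUROD4, 4.85 for INSM1, 3.67 for NHLH1, 2.78 for HES6, 2.54 for PPP1R17, 2.13 for NEUROG2 and 1.96 for NEUROD1. The median over these members was 2.78, against 0.952 over all genes. At 1000 transcripts 4 of 7 members reached it, against 1.31% of genes.

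In nuclei at 5000 transcripts, 4 of 5 members tested reached a ratio of 2, against 1.72% of 13288 genes. These were NHLH1 (6.56), NEUROD1 (5.19), HES6 (4.97) and NEUROG2 (2.71), while PPP1R17 had 1.88. At 1000 transcripts 2 of 3 members reached it, against 5.68% of genes. Members below 100 barcodes (NEUROG1 in cells, and NEUROG1, INSM1 and NEUROD4 in nuclei at 5000) were not in this comparison.

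Other genes of the neurogenic path were described with a list of 22. This list was chosen with earlier results of these data known and so is no independent evidence. In cells at 5000 transcripts 5 of 21 tested reached a ratio of 2, against 0.469% of all genes. The list median was 1.37, against 0.952 over all genes. The 5 were MFNG (5.27), a glycosyltransferase that modifies Notch, the Notch pathway inhibitor DLL3 (3.57), the growth arrest gene GADD45G (2.84), the RNA-binding protein gene ELAVL2 (2.25) and IGFBPL1 (2.24). In nuclei 6 of 17 did, against 1.72% of all genes, with a median of 1.79 against 0.956. The 6 were DLL3 (5.59), the Notch ligand DLL1 (2.95), ELAVL2 (2.86), SSTR2 (2.63), MYT1 (2.59) and IGFBPL1 (2.35).

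No division marker of 24 reached a ratio of 2 in either library at 5000 transcripts, where 0.469% and 1.72% of all genes did, so nothing is read from this count. At 1000 transcripts 1 of 11 G2/M markers tested in nuclei reached it, against 5.68% of genes. Of 12 neuron markers none did in cells and SYT4 (2.27) did in nuclei. Of 10 other helix-loop-helix genes tested in nuclei, BHLHE22 (2.12) reached it. None of 10 radial glia markers reached it. Their median was 0.929 in cells and 0.684 in nuclei, against 0.952 and 0.956 over all genes. HES1, the Notch-induced repressor, was at 0.57 in cells and 0.49 in nuclei. Ratios of 0.5 or less were found for 0 of the 10 in cells and 2 in nuclei.

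Outside the members, the largest ratios in cells at 5000 transcripts were those of ENSG00000283648 (5.38), MFNG, ENSG00000287360 (5.07), ENSG00000287636 (4.07), KIF19 (3.89), NNMT (3.64), DLL3, ENSG00000285907 (3.53), LZTS1-AS1 (3.51) and SLCO4C1 (3.49). In nuclei they were those of CREG2 (6.63), DLL3, LHX9 (5.39), NNMT (5.00), HHLA1 (4.95), MIR217HG (4.82), ENSG00000276991 (4.80), EBF2 (4.46), ENSG00000287975 (4.44) and KLHL35 (4.33). DLL3 and NNMT were in both lists. EBF2 was the most often detected of them, in 58.0% of nuclei with EOMES and 13.0% of those without.

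At 1000 transcripts the leading genes rested on 7 to 16 barcodes with EOMES in cells and 5 to 19 in nuclei. ENSG00000287636 (4.96), LINC01967 (3.94) and MFAP4 (3.55) led in cells, and AMACR (7.38), UBE2QL1 (6.21) and GPR39 (6.20) in nuclei. Of the cell list, ENSG00000287636, KIF19 and SLCO4C1 were also among the leading genes at 5000 transcripts.

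Clusters were built from variable genes without the members and without the division and neuron markers, which left 23 clusters of cells and 20 of nuclei. In cells, EOMES was highest in cluster 9 (225 barcodes), at 174 CPM (155 to 195, SD between sub-libraries 65.3), and in cluster 5 (898 barcodes), at 149 CPM (140 to 158, SD 37.4). These 2 clusters held 5.57% of barcodes and 37.3% of EOMES transcripts. Across the 20 clusters of at least 50 cells, EOMES ranged from 0 to 174 CPM with a median of 13.3.

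Cluster 9 had 14 of the 24 division markers and no neuron marker among its enriched genes, and was led by NEUROD4, EOMES, E2F2, IQGAP3 and NRP1. NEUROD4 stood at 81.5, HES6 at 75.2 and INSM1 at 29.8 CPM, their highest levels in clusters of at least 50 cells, and NEUROG1 was highest there too, at 17.8. Of these, only HES6 exceeded its level in cluster 5 by more than the summed SDs between sub-libraries. NEUROG2 was at 64.3 and NHLH1 at 62.6 CPM. NEUROD1 was at 9.76 CPM, below its 21.4 in cluster 0.

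Cluster 5 had 4 neuron markers and no division marker, and was led by EBF2, NHLH1, EOMES, ENSG00000283982 and CHST8. NHLH1 stood at 191 and NEUROG2 at 98.9 CPM, both the highest of the clusters of at least 50 cells, and PPP1R17 at 53.5. NEUROD4 was at 48.0 and HES6 at 47.5 CPM, lower than in cluster 9. Cluster 0, neuron-like with 10 of 12 markers, had EOMES at 7.94 but PPP1R17 at 46.1, NEUROG2 at 47.2 and NEUROD1 at 21.4 CPM.

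Other dividing clusters had less EOMES than cluster 9. Cluster 10, with 21 of 24 division markers and 9 of 10 radial glia markers, had NEUROG2 at 40.8 and EOMES at 5.04 CPM (SD 2.89). Cluster 3, with 10 division markers, had 41.4 and 13.1 (SD 5.39), and cluster 6, with 5, had 67.2 and 36.9 (SD 21.6). By the summed SDs between sub-libraries, EOMES in cluster 6 was separated from cluster 10 but not from cluster 3. Clusters 3 and 10 were not separated. Cluster 6 had a median depth of 1332.5 transcripts. The choroid plexus-like cluster 17 had 5.56 and 3.58. Cluster 20, whose median depth of 25246 transcripts was the highest, had EOMES at 46.6 CPM and held 17.1% of all EOMES transcripts. Cluster 16, with a median depth of 18726, held another 11.6%, against 7.97% in cluster 9 and 29.4% in cluster 5. The part of these deep barcodes in the co-detection was not tested.

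**Figure D5:**
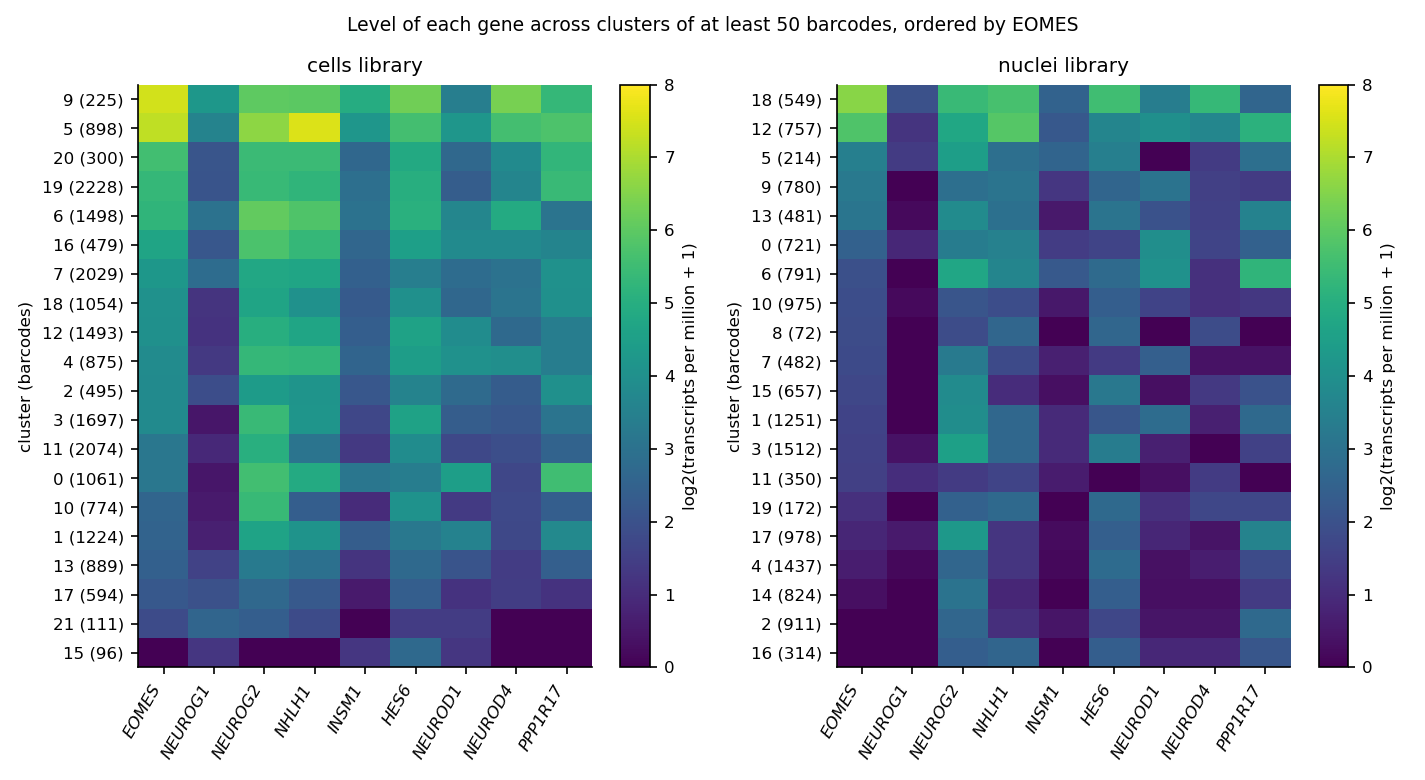
Level of each member in CPM in the clusters of cells and nuclei. EOMES is highest in clusters 9 and 5 of the cells and clusters 18 and 12 of the nuclei, while NEUROD1 has its highest values in cluster 0 of the cells, among clusters of at least 50 barcodes, and cluster 6 of the nuclei.

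In nuclei, EOMES was also highest in a pair of clusters. It was at 94.6 CPM in cluster 18 (549 nuclei) and 55.1 in cluster 12 (757 nuclei), which together held 67.8% of EOMES transcripts in 9.18% of nuclei. Cluster 18, led by EOMES, PHLDB2, DLL1, PRAG1 and PLXNA2, had NEUROD4 at 40.1, HES6 at 45.6 and NEUROG2 at 42.2 CPM, the highest of all nuclei clusters, and PPP1R17 at 5.11. Only 1 of the 24 division markers counted as enriched in cluster 18, against 14 in cluster 9 of the cells. That count also requires a minimum share of barcodes with the marker, so it is not read as little division. Summed S phase and G2/M markers stood at 845 and 1256 CPM in cluster 18, and at 1532 and 4592 CPM in cluster 9 of the cells. Among nuclei clusters, only clusters 15 (7225 CPM) and 4 (1761 CPM) had more G2/M transcripts than cluster 18. Cluster 12, with 8 neuron markers, had NHLH1 at 58.4 and PPP1R17 at 34.3 CPM, and NEUROD4 at 11.9.

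PPP1R17 and NEUROD1 were highest in the neuron-like cluster 6, at 36.6 and 15.5 CPM, where EOMES was 2.88. PPP1R17 there (30.5 to 43.5) was not separated from its 34.3 CPM (28.03 to 41.6) in cluster 12. Among clusters of at least 50 barcodes, NEUROD4 and HES6 had their highest levels in the cluster with the highest EOMES in both libraries. EOMES itself was not separated between clusters 9 and 5 of the cells, and NEUROD4 reached 114 CPM in the small cluster 14. NEUROG2 was highest in cluster 5 of the cells but cluster 18 of the nuclei. In cells its 98.9 CPM (SD 17.4) was not separated from its 67.2 CPM (SD 18.0) in cluster 6 by the summed SDs. NEUROD1 in cluster 6 was not separated from its 14.8 CPM (10.8 to 19.9) in cluster 12, nor was its 21.4 CPM (SD 10.2) in cluster 0 of the cells from its 17.4 CPM (SD 4.57) in cluster 5. NHLH1 at 58.4 CPM (50.1 to 67.6) in cluster 12 was not separated from its 49.9 CPM (41.2 to 59.8) in cluster 18. NEUROD1 reached 232 CPM in cluster 14 of the cells, which had 29 barcodes, 58.6% of them from 1 well, and 3 EOMES transcripts.

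Co-detection was then examined inside the EOMES clusters at 5000 transcripts. In cluster 5 of the cells, 89.9% of the 188 barcodes with EOMES (84.7 to 93.8) had another member, against 76.2% of the 290 without (70.9 to 81.0). NEUROD4 was in 28.2% (21.9 to 35.2) and 11.03% (7.68 to 15.2) of them. In cluster 9 another member was in 80.4% of 51 barcodes with EOMES and 81.6% of 49 without, and NEUROD4 in 37.3% (24.1 to 51.9) and 14.3% (5.94 to 27.2).

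In cluster 18 of the nuclei another member was in 68.1% of 47 nuclei with EOMES (52.9 to 80.9) and 48.7% of 115 without (39.3 to 58.2). In cluster 12 the shares were 58.5% of 41 and 57.1% of 163. NEUROD4 was in 21.3% against 15.7% of nuclei in cluster 18 and in 4.88% against 3.07% in cluster 12, with overlapping intervals, so the ratio of 11.3 over all nuclei was not resolved inside clusters. The gap in another member was smaller inside each of these clusters than over all cells or all nuclei, and the intervals were apart in cluster 5 alone.

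Division differed between the clusters. In cluster 9, all 51 barcodes with EOMES and all 49 without had at least 2 division markers, so the score could show no difference there. In cluster 5 the shares were 60.1% (52.7 to 67.2) and 50.3% (44.4 to 56.2). In the nuclei they were 85.1% and 76.5% in cluster 18 and 31.7% and 22.7% in cluster 12. The share was thus higher with EOMES in clusters 5, 18 and 12, with overlapping intervals in each. In the dividing cluster 9, neuron markers were in 92.2% of barcodes with EOMES (81.1 to 97.8) and 87.8% of those without (75.2 to 95.4).

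The likeness of other genes to EOMES was taken over the 20 clusters of at least 50 barcodes in each library, as Pearson's r of log2 levels. It is a description over points that share libraries and differ in depth. Among members, NEUROD4 was the most like EOMES (r = 0.95 in cells and 0.87 in nuclei), followed, by the smaller r, by NHLH1 (0.92 and 0.86) and INSM1 (0.85 and 0.78), while HES6 had 0.87 and 0.63. PPP1R17 was at 0.81 in cells and 0.35 in nuclei.

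Of 14790 genes with at least 200 transcripts in each library, the 10 other genes most like EOMES by the smaller r were CBFA2T2 (0.890), DLL3 (0.843), TMEM178A (0.836), NNMT (0.828), CDC42EP3 (0.822), DLL1 (0.806), LZTS1 (0.804), GADD45G (0.804), CREG2 (0.796) and ELAVL2 (0.796). CBFA2T2, DLL3, DLL1, GADD45G and ELAVL2 were also on the neurogenic list, which was chosen with earlier results of these data known and so is no independent evidence. NHLH1 ranked second among the genes past that limit, which NEUROD4, INSM1 and NEUROG1 did not reach in nuclei. The median smaller r was -0.17.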

How the data were processed

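Split-seq counts of 2 libraries were analysed, cells and nuclei. The authors demultiplexed reads into 8 and 2 sub-libraries with demuxFQ and ran the Parse pipeline on GRCh38, and the deposited matrices hold transcript counts (molecules, not normalised) for each barcode and gene. The doublet and free RNA removal of the study was not applied to them. The members and lists were chosen with earlier results of these data known.

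Kept barcodes held over 500 genes, over 1000 transcripts and a mitochondrial share of 20% or less, with medians of 2615 and 3890 transcripts. Counts were drawn without replacement to 1000 transcripts, and to 5000 as an addition, and tested on simulated data. Intervals are exact Clopper-Pearson or Poisson intervals at 95%. A count of 0 allows 3 counts. A marker counted as enriched in a cluster at a fold of 1.5 or more in at least 25% of its barcodes, and a cluster was named from 3 or more such markers.

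Clusters used 2000 variable genes, 30 principal components, 15 neighbours and Leiden resolution 1 (scanpy 1.11.5, leidenalg 0.10.2, numpy 2.4.6, scipy 1.17.1, pandas 2.3.3, Python 3.11.15). Scrublet called 0 barcodes and so did not work. Its highest scores (1009 cells, 427 nuclei) were left out as an alternative only.

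Named genes were the members, the listed genes, the 5 leading genes of each cluster described, and the 10 genes with the largest ratio or likeness to EOMES. Pairs were the 5 most frequent and the 5 with the largest ratio. Alternatives were other depths, seeds, filters, ratios, marker minimums and resolutions, and leaving out the well with the most EOMES. The result of 1 listed gene is not reported here.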

Additional observations from a re-analysis of the deposited data

How the results depend on the processing

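No paired analysis was possible because each library was 1 sample with no replicate. Leaving out the highest Scrublet scores, allowing at most 10% mitochondrial transcripts or keeping the deepest barcode of each combination moved none of the 80 values recomputed for members other than EOMES beyond its interval. These settings reuse the barcodes of the main values, so little movement could be seen. Over all settings, 268 values for members other than EOMES moved, 3 reversed and 449 stayed. Thinning to 2000 transcripts moved 52 of 64 and another seed moved 7 of 64. The values on EOMES, its genes and clusters and on 2 or more members were counted apart. Over all settings 60 of these moved and 78 did not. Depth limited most results. In cells and nuclei, thinning to 2000 transcripts gave EOMES in 3.92% and 1.42% of barcodes, 2 or more members in 4.07% and 0.897%, and, among EOMES barcodes, another member in 46.8% and 28.6%, division markers in 54.5% and 32.9% and neuron markers in 84.0% and 80.7%, with 115 and 397 genes at a ratio of 2. At 5000 these were 7.29% and 2.68%, 12.3% and 3.16%, 66.0% and 54.3%, 73.1% and 62.3%, 96.6% and 97.1%, and 77 and 229 genes. Without thinning they were 7.55% and 3.01%, 12.5% and 3.65%, 70.5% and 53.3%, 83.2% and 54.0%, 95.7% and 91.4%, and 20447 and 1554 genes.

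Without thinning, division markers were more frequent with than without NHLH1 in cells (79.7%) and PPP1R17 in cells and nuclei (78.9% and 46.9%), the reverse of the equal-depth result. With only barcodes over 5000 transcripts thinned to 1000, cells had 2 or more members in 1.56%, and EOMES cells another member in 34.0% and division markers in 31.9%, while EOMES nuclei had division markers in 33.3%. EOMES in nuclei over 5000 transcripts was 6.62 CPM, and in cells without the well with the most EOMES 22.5 CPM. Another seed gave another member in 20.0% of EOMES nuclei, against 11.5%.

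Requiring 1 marker gave division in 61.0% and 42.6% and neuron markers in 89.2% and 86.9% of EOMES cells and nuclei. Requiring 3 gave division in 22.0% of cells and neuron markers in 39.4% and 33.6%. In cells and nuclei 912 and 1726 genes passed a ratio of 1.5, 17 and 139 a ratio of 3, and 1300 and 1882 with genes of at least 20 barcodes. The share of EOMES transcripts in the 2 highest clusters was 48.3% in cells at resolution 0.5, 34.9% and 42.2% in cells and nuclei at resolution 2, and 46.4% in cells with another seed. The cause of these shifts was not tested.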
